A study of Xenopus laevis with 30 samples.

Results

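The midbrain of Xenopus laevis, the African clawed frog, was compared between stage 61 of Nieuwkoop and Faber (NF), the climax of metamorphosis, and stage 55, before the climax. The comparison was chosen by the labels of the samples, and it rests on 6 of the 30 samples of the series, 3 labelled stage 55 midbrain and 3 labelled stage 61 midbrain. All animals were albino tadpoles of both sexes, and per the study's methods the 3 samples of a stage were biological replicates. The series followed gene expression over tadpole brain development, and its midbrain samples of stages 44 and 46 (3 each) entered the same fit and are given for context. RNA was extracted from dissected midbrain, amplified to cDNA and sequenced.

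Metamorphosis of the frog is driven by thyroid hormone. The prohormone T4 is converted to the active form T3 by the deiodinase encoded by dio2, and both are inactivated by the deiodinase encoded by dio3. T3 binds receptors encoded by thra and thrb, which sit on DNA and switch target genes from repression to activation when hormone is bound. The midbrain holds the optic tectum, the main visual center of the frog, where cells that line the ventricle keep dividing and add neurons during tadpole life.

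Between 7206523 and 10763835 reads were counted on genes per sample over the 6 samples. Pearson's r of log2 expression across genes was between 0.953 and 0.965 within the stages and between 0.912 and 0.936 from stage 55 to stage 61, and genes are not independent replicates. After thinning to the smallest library, 33048 to 36233 genes had a read at stage 55 and 31207 to 33204 at stage 61. The 10 genes with the most reads took 12 to 12.8% of the reads at stage 55 and 8.36 to 8.87% at stage 61. Regional markers were those of midbrain. The homeobox gene en2.S, which marks midbrain and the border with hindbrain, had 26.3 ± 8.01 CPM (the read count relative to the library size after TMM scaling, SD, n = 3) at stage 55 and 32.9 ± 5.57 CPM at stage 61, and otx2.L, of forebrain and midbrain, had 57.0 ± 15 and 42.9 ± 3.02 CPM. Of 37 genes listed as markers of hindbrain and spinal cord, which are mostly hox genes, only 3 (egr2.L and the copies of mafb, none of them a hox gene) had enough reads to be tested. Per the study's methods the libraries were pooled for sequencing in the same lane. The labels give no clutch or collection day, so a difference of that kind and the stage cannot be told apart.

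At the climax many genes fell far and few rose far. Of 26681 genes tested, 94 (0.352%) were called higher at stage 61 and 795 (2.98%) lower, where a call needs an adjusted p below 0.05 (edgeR's quasi-likelihood test, Benjamini-Hochberg adjustment) and a change of over 2 on the log2 scale. Stage 55 and stage 61 samples were fully separate in 85 of the genes called higher and 750 of those called lower. Over all genes tested, the stage 61 samples lay all above in 3855 and all below in 4314. A call of this size favors such separation, so the separation is not independent support. Together the genes called lower took 20510 to 21536 CPM at stage 55 and 1854 to 2736 CPM at stage 61, and the genes called higher went from 725 to 1219 CPM to 5261 to 6886 CPM. At stages 44 and 46 the genes called lower summed to 22833 to 29118 CPM, and 767 of the 795 had means above that of stage 61 at both of these stages.

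The imbalance belonged to large changes. With no limit on size, 2273 genes (8.52%) were higher and 2862 (10.7%) lower at an adjusted p below 0.05 (edgeR), so that 44.3% of the changed genes were higher. The share that rose was 24.4% among changes above 1 on the log2 scale, 10.6% above 2 and 7.03% above 3. The median log2 fold change of all genes tested was -0.03, and other scalings of the libraries moved it to between -0.06 and -0.02. Without stage 55 replicate 3 the calls were 143 higher and 875 lower. In bulk tissue, fewer cells of a type and less RNA per cell cannot be told apart.

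**Figure D1:**
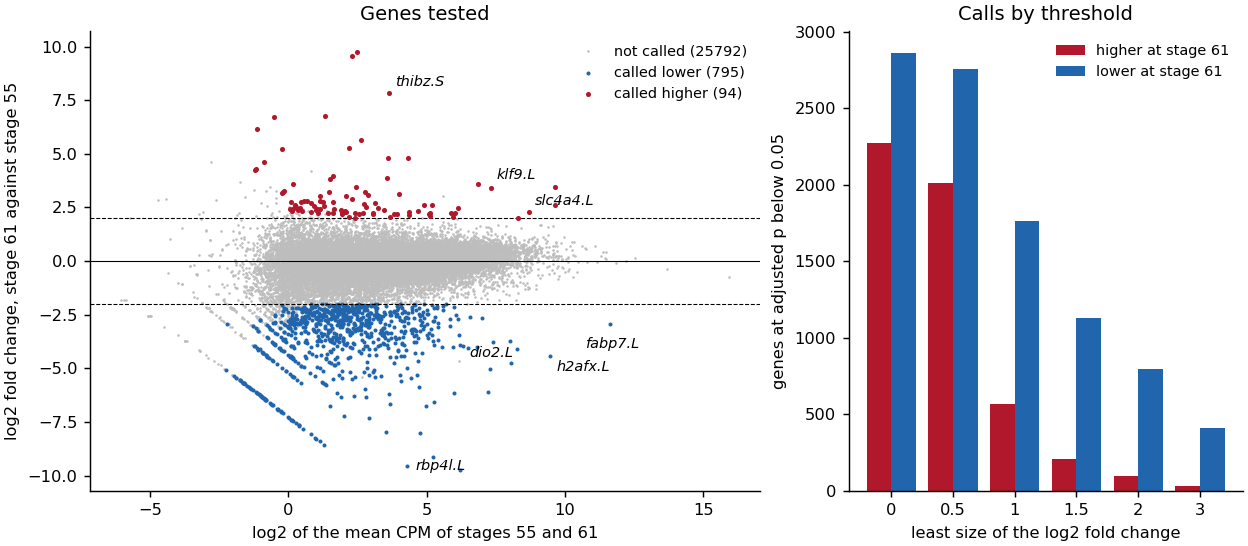
The left panel plots the log2 fold change of stage 61 against stage 55 for each gene tested against the log2 of its mean CPM over both stages, with 94 genes called higher in red, 795 called lower in blue and dashed lines at 2 and -2; 7 tested genes with no count at either stage are not drawn. The right panel counts genes at an adjusted p below 0.05 by the least size of the log2 fold change, from 2273 higher and 2862 lower with no limit to 31 higher and 410 lower above 3.

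Both deiodinases changed, in opposite directions. The activating enzyme gene dio2.L had 159.6, 132.9 and 151.5 CPM at stage 55 and 5.05, 12 and 11.6 CPM at stage 61. It fell by 3.96 on the log2 scale (standard error 0.22, edgeR adjusted p = 9.3e-11), after means of 128 CPM at stage 44 and 124 CPM at stage 46. The inactivating enzyme gene dio3.L had 0.21, 1.89 and 1.95 CPM at stage 55 and 48.5, 43.2 and 23.7 CPM at stage 61, a rise of 4.80 on the log2 scale (standard error 0.48, adjusted p = 5.6e-07). For both genes every stage 61 sample lay far from every stage 55 sample.

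The receptor genes differed from each other. The copies of thra, which encodes the receptor present before hormone rises, had similar levels at both stages. thra.L had 25.4 ± 2.06 CPM at stage 55 and 21.8 ± 5.89 CPM at stage 61 (SD, n = 3 each, log2 fold change -0.22, standard error 0.23, edgeR adjusted p = 0.56), and thra.S had 19 ± 8.21 and 23.5 ± 2.04 CPM (0.31, standard error 0.28, adjusted p = 0.48). The copy thrb.L of the receptor that hormone itself induces had 1.56, 2.07 and 1.85 CPM at stage 55 and 14.6, 11 and 9.10 CPM at stage 61, a rise of 2.65 on the log2 scale (standard error 0.41, adjusted p = 8.0e-05). Its other copy, thrb.S, had 1.98, 1.62 and 8.19 CPM and then 13.5, 11 and 17.7 CPM, a rise of 1.84 on the log2 scale (standard error 0.53, adjusted p = 0.018) that was short of the threshold with all samples and was 2.95 without stage 55 replicate 3.

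Classical response genes of thyroid hormone were among the largest rises. klf9.L, which encodes a zinc finger factor that thyroid hormone receptors induce directly, had 14.4, 34.1 and 33.2 CPM at stage 55 and 233, 334 and 311 CPM at stage 61, a rise of 3.42 on the log2 scale (standard error 0.23, edgeR adjusted p = 4.8e-09). thibz encodes a leucine zipper factor named for its induction by thyroid hormone. Its copy thibz.L had 1.35, 0.27 and 0.88 CPM and then 21.4, 25.2 and 23.5 CPM, a rise of 4.81 on the log2 scale (standard error 0.56, adjusted p = 3.0e-06). The copy thibz.S had reads in 1 stage 55 sample, at 0.27 CPM, and 11.1, 36.9 and 27.3 CPM at stage 61 (adjusted p = 1.3e-06). No sample of the earlier stage reached the level of any stage 61 sample in these 3 genes.

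The lists of the hormone held rises and falls. Among 30 tested genes of receptors, deiodinases, transporters and cofactors, 2 were called higher and 2 lower (dio2.L and the transporter copy slc16a10.S), with a median log2 fold change of 0.03, beside 0.352% of all genes called higher and 2.98% lower. At any size 8 were higher and 5 lower, beside 8.52% and 10.7% of all genes. The count of those called higher was 4 without stage 55 replicate 3. slc16a10.S had 4.27, 8.38 and 2.24 CPM at stage 55 and a read in only 1 of the stage 61 samples, at 0.58 CPM (edgeR adjusted p = 4.4e-04). Among 42 listed response genes 3 were called higher and 1 lower, with a median of 0.17, beside 8 higher and 8 lower at any size. The lower call was aldh1a2.S, a copy of the gene for a retinoic acid synthase, which went from 4.53 ± 1.5 CPM to 0.278 ± 0.365 CPM (SD, n = 3 each, adjusted p = 9.5e-05), while its copy aldh1a2.L had a log2 fold change of -0.29 (adjusted p = 0.50).

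Smaller rises were seen in further genes of the lists, which were picked after their values were seen. crym.S, for a protein that binds T3 in the cytoplasm, went from 8.2 ± 5.42 CPM to 31.2 ± 1.57 CPM (SD, n = 3 each, log2 fold change 1.94, standard error 0.36, edgeR adjusted p = 7.9e-04), and it passed the threshold without stage 55 replicate 1 (2.06) or 3 (2.42). The nuclear factor I gene nfic.L went from 11.6 ± 1.82 to 46.0 ± 2.35 CPM (log2 fold change 1.99, adjusted p = 1.7e-06), and the repressor gene bcl6.L from 29.9 ± 6.34 to 99.98 ± 17.2 CPM (1.74, adjusted p = 1.5e-06). nfic.L lay at the threshold, which it passed without stage 55 replicate 3 (2.10) or without stage 61 replicate 1 or 2.

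**Figure D2:**
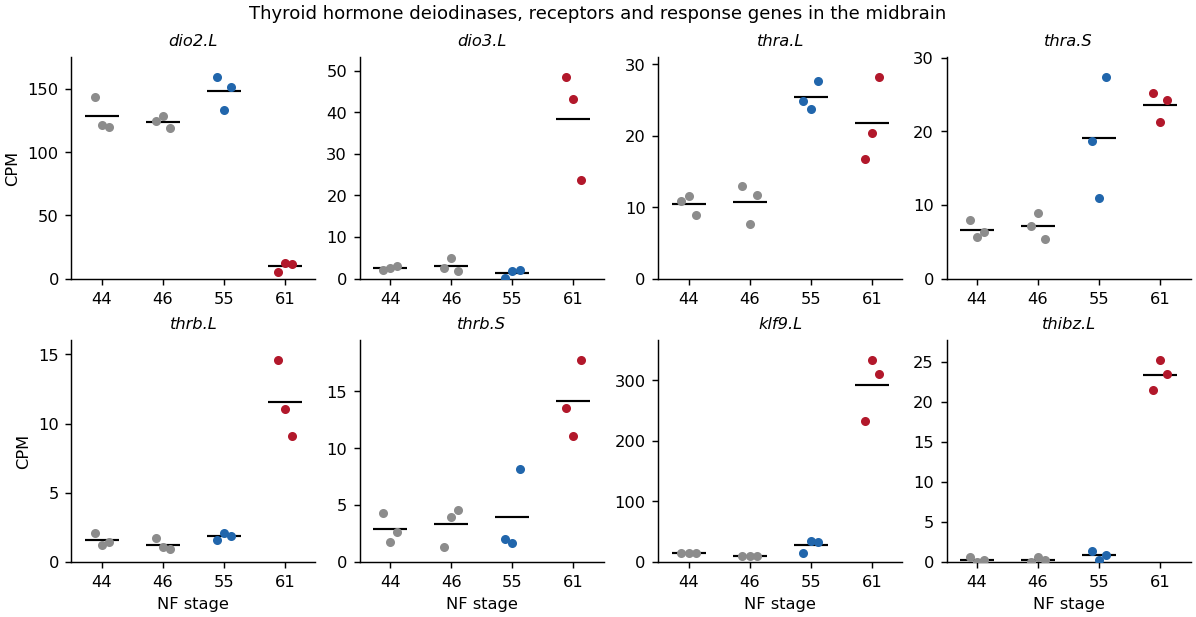
CPM after TMM scaling of 8 thyroid hormone genes in each of the 12 midbrain samples by NF stage, with points for samples, bars for the mean of 3, blue for stage 55 and red for stage 61, and a separate axis from 0 in each panel. dio2.L was at 133 to 159.6 CPM at stage 55 and 5.05 to 12 CPM at stage 61, while klf9.L went from at most 34.1 CPM to at least 233 CPM and the samples of thra.L and thra.S overlapped between these stages.

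Of the 94 genes called higher, 52 have a symbol and 42 a bare identifier, and 39 reached a mean of 10 CPM at stage 61. slc4a4.L, for a sodium bicarbonate cotransporter of glia and epithelia, had 117, 137 and 165 CPM at stage 55 and 552, 758 and 763 CPM at stage 61, a rise of 2.31 on the log2 scale (standard error 0.17, edgeR adjusted p = 3.6e-09). Its mean was 26.5 CPM at stage 44 and 36.3 CPM at stage 46. The gap junction gene gja1.L (connexin 43), a marker of astroglia, had 8.55, 17.1 and 14.2 CPM and then 70.6, 48.7 and 52.6 CPM, a rise of 2.10 on the log2 scale (standard error 0.25, adjusted p = 3.0e-06). That value was 1.87 without stage 55 replicate 1 and 1.93 without stage 61 replicate 1, below the threshold, with no overlap of the samples.

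pltp.L, for the phospholipid transfer protein, had 19.3, 22.5 and 25.8 CPM at stage 55 and 124, 102 and 98.3 CPM at stage 61 (log2 fold change 2.26, standard error 0.19, edgeR adjusted p = 4.2e-08). etnppl.L, for an enzyme that breaks down phosphoethanolamine, had 6.98, 10.7 and 7.60 CPM and then 47.0, 58.2 and 51.1 CPM (2.62, standard error 0.24, adjusted p = 8.2e-08). adipoq.L, which the files name for adiponectin, a hormone known from fat tissue, went from 12.1 ± 0.841 CPM to 55.9 ± 3.65 CPM (SD, n = 3 each, 2.21, adjusted p = 8.9e-07). In each of these 3 genes the lowest stage 61 sample was over the highest stage 55 sample.

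nfix.L, a nuclear factor I gene, had 11.3, 15.1 and 37.8 CPM at stage 55 and 114, 107 and 135 CPM at stage 61 (log2 fold change 2.47, standard error 0.34, edgeR adjusted p = 1.0e-04), from means of 1.49 CPM at stage 44 and 2.11 CPM at stage 46. The corepressor gene nacc2.L went from 24 ± 4.66 to 100.4 ± 5.59 CPM (2.06, adjusted p = 5.0e-07), and pmepa1.L, an inhibitor of TGF-beta signaling, from 12.2 ± 1.80 to 57.3 ± 5.77 CPM (2.24, adjusted p = 9.7e-08). The chaperone gene dnajb5-like.L went from 20.6 ± 2.86 to 97.0 ± 31.6 CPM (2.23, adjusted p = 6.0e-08). The log2 fold change was 1.93 for nacc2.L without stage 55 replicate 1 and 1.92 for dnajb5-like.L without stage 61 replicate 2. Both copies of inhbb, for the beta B subunit of activins and inhibins, rose: inhbb.L had 3.65, 2.25 and 4.0 CPM and then 35.6, 27.3 and 24.1 CPM (3.14, standard error 0.35, adjusted p = 1.3e-06), and inhbb.S went from 1.57 ± 1.56 to 13.3 ± 1.16 CPM (3.06, adjusted p = 1.9e-04).

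Among low genes with large rises were the serum protein gene itih6.S, from 1.29 ± 0.701 to 12.4 ± 7.81 CPM (SD, n = 3 each, log2 fold change 3.24, edgeR adjusted p = 0.0015), adprh, for a hydrolase that removes ADP-ribose from proteins, from 0.90 ± 0.793 to 7.68 ± 1.72 CPM (3.05, adjusted p = 0.0016), and slc7a2.2.L, a cationic amino acid transporter gene, from 0.357 ± 0.619 to 5.76 ± 1.00 CPM (3.96, adjusted p = 0.0089). DESeq2 gave slc7a2.2.L an adjusted p of 0.10. The growth factor gene fgf10.L went from 0.472 ± 0.320 to 3.97 ± 2.18 CPM (3.03, adjusted p = 0.019), with adjusted p of 0.071 without stage 55 replicate 1 and 0.095 without stage 61 replicate 1. The open reading frames c1orf116.L and c3orf80.L, with no role given here, reached 4.97 ± 2.47 and 5.38 ± 1.84 CPM. The bare identifier MGC84484 had no count at stage 55 and 11.3, 12.2 and 6.34 CPM at stage 61, at least 103-fold higher against a floor of 3 counts over the stage 55 samples. Among bare identifiers with higher CPM, picked after their values were seen, LOC108707216 had 119, 43.9 and 231 CPM and then 1488, 1862 and 1006 CPM (log2 fold change 3.47, standard error 0.55, adjusted p = 0.0026). LOC108717350, annotated by RefSeq (assembly v10.1) as a long noncoding RNA, had 234, 106 and 332 CPM and then 1260, 1738 and 1119 CPM (2.61, adjusted p = 4.3e-04), and LOC108706970 went from 17.9 ± 8.42 to 217 ± 32.7 CPM (3.60, adjusted p = 2.2e-09).

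Genes of cell division made up the clearest group among the falls. Of 59 tested genes of DNA replication, which encode the machinery that licenses, unwinds and copies DNA, 29 were called lower and none higher, with a median log2 fold change of -1.91 and 58 negative values. At any size 48 were lower at an adjusted p below 0.05. The list is read against 2.98% of all genes called lower and a median of -0.03. mcm4.L, for a subunit of the replicative helicase, had 76.3, 61.5 and 69.3 CPM at stage 55 and 4.17, 7.64 and 4.26 CPM at stage 61, and it fell by 3.71 (standard error 0.20, edgeR adjusted p = 4.3e-11). Its mean had been 139 CPM at both stage 44 and stage 46. The helicase gene mcm5.L went from 38.4 ± 7.49 to 1.14 ± 1.30 CPM (-4.99, adjusted p = 2.8e-08). Over the list, summed expression was 1098 to 1378 CPM at stage 55 and 376 to 419 CPM at stage 61. At stages 44 and 46 it had been 2032 to 2198 CPM.

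Mitosis fell further. Of 75 tested genes of the mitotic cyclins, spindle, kinetochore and chromosome condensation, 48 (64%, beside 2.98% of all genes) were called lower and none higher. Their median log2 fold change was -2.53, and the sum over the list was 1194 to 1689 CPM at stage 55 and 255 to 320 CPM at stage 61. top2a.L, the topoisomerase that untangles chromosomes, had 132, 113 and 106 CPM and then 11.7, 4.10 and 5.76 CPM, and fell by 3.99 (standard error 0.25, edgeR adjusted p = 1.8e-09). The mitotic kinesin gene kif20a.S had 11.8, 7.66 and 4.58 CPM at stage 55 and a read in 1 of the stage 61 samples, at 0.12 CPM (adjusted p = 1.1e-07). Cyclin A2, ccna2.L, added after its values were seen, had 47.1, 26.5 and 26.7 CPM and then 0.66, 0.28 and 1.04 CPM, a fall of 5.59 (standard error 0.35, adjusted p = 6.1e-10). With each sample left out in turn, 43 to 54 mitotic and 27 to 31 replication genes were called lower.

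Regulators of the step from G1 to S mostly had lower values. Of 40 tested, 10 were called lower and 1 higher (25% and 2.5%, beside 2.98% and 0.352% of all genes). At any size 17 were lower and 3 higher, beside 10.7% and 8.52% of all genes, and 31 were negative, with a median log2 fold change of -0.91. cdk2.L, for the kinase that starts S phase, had 18.1, 14 and 20.2 CPM at stage 55 and 0.22, 0 and 0.92 CPM at stage 61 (edgeR, -5.40, adjusted p = 2.3e-08). The gene called higher was cdkn1a.S (p21), an inhibitor of cyclin-dependent kinases. It had 5.31, 9.64 and 7.80 CPM and then 42, 34.0 and 25.3 CPM, a rise of 2.15 on the log2 scale (standard error 0.29, adjusted p = 1.5e-05) that was 1.95 without stage 55 replicate 1 and 1.96 without stage 61 replicate 1. Its copy cdkn1a.L went from 2.3 ± 0.882 to 8.18 ± 4.9 CPM (SD, n = 3 each, 1.83, adjusted p = 0.025), which passed the threshold without stage 55 replicate 3 (2.17) or without stage 61 replicate 2 or 3. foxm1, a transcription factor of mitotic genes, fell in the copy foxm1.S (43.4 ± 5.71 to 9.63 ± 0.738 CPM, -2.17, adjusted p = 2.6e-08), while foxm1.L had 19.9 ± 4.16 and 24.9 ± 2.17 CPM (0.32, adjusted p = 0.37).

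Histones and chromatin proteins of dividing cells fell in part. Of 26 tested genes with histone names, a set chosen after the values were seen, 11 were called lower and none higher, beside 2.98% of all genes called lower. Their median log2 fold change was -0.85, so the histone genes given below fell further than most. Of 44 listed chromatin genes 10 (22.7%, beside 2.98% of all genes) were called lower and none higher, with a median log2 fold change of -0.85. h2afx.L, for histone H2A.X, had 1730, 1071 and 1289 CPM at stage 55 and 92.1, 64.8 and 33.3 CPM at stage 61, and fell by 4.43 (standard error 0.30, edgeR adjusted p = 2.1e-07). The H2B gene hist1h2bj.L had 553, 499.7 and 694 CPM and then 41.6, 30.1 and 30.5 CPM, a fall of 4.09 (standard error 0.17, adjusted p = 2.8e-12), and the H3 gene hist2h3c.L went from 213 ± 46.7 to 13.1 ± 8.77 CPM (-4.02, adjusted p = 4.9e-05). kiaa0101.S, for a protein that binds the replication clamp PCNA, had 1.36 to 2.88 CPM at stage 55 and no count at stage 61, at least 18.1-fold lower against a floor of 3 counts over the stage.

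**Figure D3:**
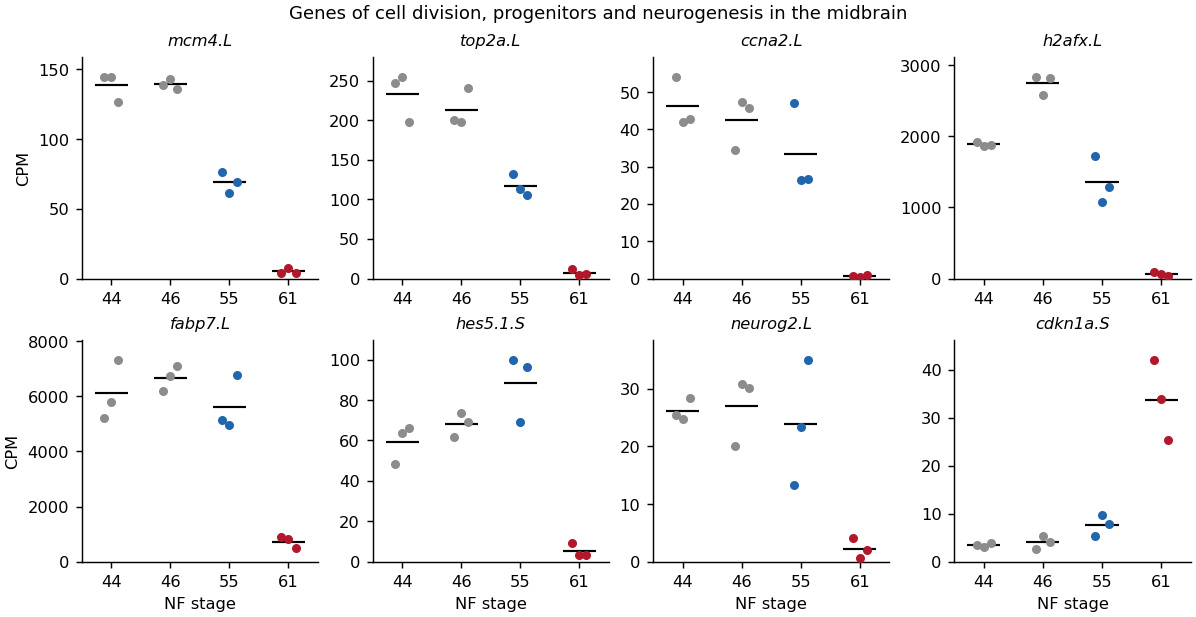
CPM after TMM scaling of 8 genes of cell division, progenitors and neurogenesis in each of the 12 midbrain samples by NF stage, with points for samples, bars for the mean of 3, blue for stage 55, red for stage 61, and a separate axis from 0 in each panel. The 7 genes other than cdkn1a.S were lower in each stage 61 sample than in any stage 55 sample, and cdkn1a.S was higher, at 25.3 to 42 CPM against 5.31 to 9.64 CPM.

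The markers of radial glia, the progenitors that line the ventricle, fell in part. Of 47 tested genes of radial glia and neuroepithelium, 9 (19.1%, beside 2.98% of all genes) were called lower and none higher, with a median log2 fold change of -0.87. fabp7.L, a fatty acid binding protein of radial glia, had 5131, 4958 and 6772 CPM at stage 55 and 902, 807 and 483 CPM at stage 61, the largest drop in CPM among genes called lower that carry a symbol. It fell by 2.94 (standard error 0.20, edgeR adjusted p = 3.3e-09), from means of 6104 CPM at stage 44 and 6675 CPM at stage 46. The hes family gene hes3.3.L had 17.3, 12.7 and 12.1 CPM and then 0.66, 0.71 and 0.23 CPM (-4.71, adjusted p = 6.8e-08). The intermediate filament gene nes.S (nestin), picked after its values were seen, went from 80.3 ± 34.1 to 16.8 ± 11.5 CPM (-2.28, adjusted p = 0.0066), and it was -1.93 without stage 55 replicate 3 and -1.97 without stage 61 replicate 1. Among other members of the list, picked after their values were seen, sox2.L, a factor of neural stem cells, had a log2 fold change of 0.09 (adjusted p = 0.83), and slc1a3.L, a glutamate transporter that astroglia also use, rose from 642 ± 101 to 1053 ± 125 CPM (0.71, adjusted p = 0.0033).

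Genes of neurogenesis and of Notch signaling, in which newborn neurons carry the ligand and hold their neighbors in the progenitor state, fell in part. Of 44 genes of intermediate progenitors and immature neurons 9 were called lower (median log2 fold change -0.63), and of 37 Notch pathway genes 10 (median -0.78), with none higher in either list, beside 2.98% of all genes called lower. Their summed expression overlapped between stage 55 and stage 61, at 6135 to 10257 and 7260 to 7922 CPM for the former list and at 2113 to 2645 and 2295 to 2548 CPM for the Notch pathway. The ligand gene dll1.L had 142, 94.1 and 106 CPM at stage 55 and 26.8, 16.6 and 16.5 CPM at stage 61, a fall of 2.51 (standard error 0.20, edgeR adjusted p = 1.7e-08). Among genes of the hes family, the Notch target hes5.1.S, picked after its values were seen, had 99.8, 69.3 and 96.5 CPM and then 9.44, 3.26 and 3.57 CPM (-4.0, adjusted p = 1.2e-08). The listed gene hes2.L had 0.63 to 1.15 CPM and then no count, at least 7.33-fold lower. The proneural gene neurod4.S had 3.65, 3.15 and 5.07 CPM at stage 55 and no count at stage 61, at least 32.8-fold lower, and neurog2.L, picked after its values were seen, went from 23.9 ± 10.8 to 2.27 ± 1.81 CPM (-3.34, adjusted p = 3.1e-05). btg2.S, an antiproliferative gene of cells about to leave the cycle, which also stands in a list of immediate early genes, went from 23.5 ± 6.17 to 4.68 ± 2.56 CPM (-2.34, adjusted p = 5.0e-05). The tubulin gene tubb3.L of newborn and older neurons, picked in the same way, had a log2 fold change of 0.12 (adjusted p = 0.66).

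Ribosomal protein genes shifted as a block by less than the threshold. Of 110 tested genes of the cytosolic ribosome 105 were lower at an adjusted p below 0.05 (edgeR, 10.7% of all genes), all 110 log2 fold changes were negative, and the median was -1.1. Under the other 3 scalings of the libraries 105 were again lower and all 110 negative. The values ran from -2.28 to -0.32, and 1 gene was called, rps9, at 62.3, 55.2 and 44.5 CPM at stage 55 and 16, 9.48 and 7.72 CPM at stage 61 (adjusted p = 4.4e-07). Without stage 55 replicate 2 or 3 there were 2 calls. Its copy rps9.L had a log2 fold change of -0.73 (adjusted p = 0.093). rpl3.L, picked after its values were seen, had 695, 825 and 584 CPM and then 287, 272 and 287 CPM (-1.31, standard error 0.13, adjusted p = 4.1e-07). The sum over the list was 10978 to 15614 CPM at stage 55 and 5990 to 6730 CPM at stage 61, beside 9838 to 15220 CPM at stages 44 and 46. At the same measure, 6 of 27 housekeeping genes were lower and 1 higher (edgeR), with 16 negative and 11 positive values and a median of -0.23. None of them was called by edgeR or DESeq2, with 1 higher and 8 lower at an unadjusted p below 0.05.

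Many genes of mature neurons rose, each by less than 2 on the log2 scale. All 41 tested genes of the presynaptic terminal and vesicle release had a positive log2 fold change, with a median of 0.72, and 31 were higher at an adjusted p below 0.05 (edgeR, 8.52% of all genes) and none lower. No member passed the threshold of 2 with edgeR or DESeq2, and 34 were higher at an unadjusted p below 0.05. The vesicle protein gene vamp2.S (synaptobrevin) had 995, 741 and 850 CPM at stage 55 and 1467, 1737 and 1568 CPM at stage 61 (0.88, standard error 0.12, adjusted p = 3.0e-05). Of genes picked after their values were seen, syp.S (synaptophysin) went from 287 ± 51.5 to 607 ± 99.1 CPM (1.08, adjusted p = 1.8e-04) and cplx1.L (complexin) from 241 ± 8.55 to 485 ± 48.5 CPM (1.01, adjusted p = 4.3e-06). Summed, the list had 6259 to 6776 CPM at stage 55 and 10667 to 11220 CPM at stage 61, while it had 7644 to 8127 CPM at stages 44 and 46.

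Ion channels and postsynaptic genes moved the same way. All 28 tested ion channel genes of mature neurons were positive (median log2 fold change 0.61, 17 higher at any size and 18 at an unadjusted p below 0.05), as were 45 of 47 postsynaptic receptor and scaffold genes (median 0.42, 16 and 21). Of all genes 8.52% were higher at any size and 10.7% lower. None was called with edgeR or DESeq2 in either list. The kinase gene camk2b.L, part of the postsynaptic density, had 280, 311 and 301 CPM and then 650.1, 650.2 and 668 CPM (1.14, standard error 0.13, edgeR adjusted p = 2.3e-06), and scn2b.L, a sodium channel subunit gene, went from 145 ± 4.77 to 228 ± 15.3 CPM (0.65, adjusted p = 6.6e-04). The receptor subunit gene gabra2.S, picked after its values were seen, went from 98.7 ± 11 to 204 ± 7.88 CPM (1.05, adjusted p = 7.3e-05). Under library size alone, 42 of the postsynaptic genes were positive. Of 27 neurofilament and axon genes 12 were higher and 1 lower at any size (median 0.39), and tubb4a.S, a neuronal tubulin, went from 2482 ± 103 to 3300 ± 226 CPM (0.41, adjusted p = 0.014).

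Genes of energy use were also among the smaller rises. Of 47 genes of glycolysis and related energy supply 21 were higher and none lower at an adjusted p below 0.05 (edgeR), beside 8.52% and 10.7% of all genes. Of the 47, 38 were positive, and the median log2 fold change was 0.40. None was called with edgeR or DESeq2, and at an unadjusted p below 0.05 there were 26 higher and 1 lower. The glycolytic gene gapdh.S had 1106, 1098 and 871 CPM at stage 55 and 1445, 1396 and 1510 CPM at stage 61 (0.50, standard error 0.15, adjusted p = 0.020). Among 41 transporters of ions, ammonium and amino acids 15 were higher and 4 lower at any size. With edgeR 1 was called higher (slc4a4.L) and 3 lower (2.44% and 7.32%, beside 0.352% and 2.98% of all genes), and with DESeq2 1 and 2. Among those called lower, atp1b2.S, a beta subunit of the sodium pump, had 4.69, 4.60 and 5.56 CPM and then no count, at least 41.0-fold lower.

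**Figure D4:**
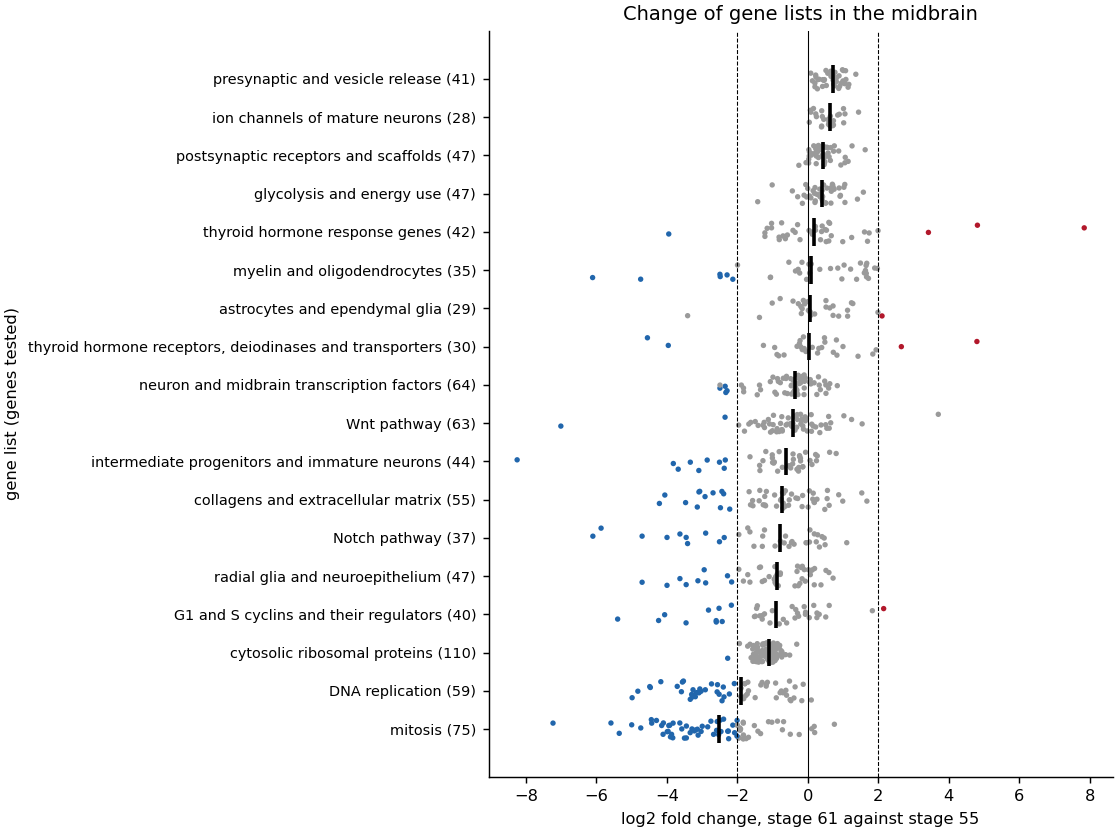
Log2 fold changes of stage 61 against stage 55 for the tested genes of 18 lists, each point a gene (red called higher, blue called lower, gray not called), with a black bar at the median, dashed lines at 2 and -2, and the number tested in parentheses. The medians run from -2.53 for mitosis and -1.91 for DNA replication to 0.72 for presynaptic genes, whose 41 points all lie between 0.08 and 1.36.

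Glia did not move as a block. Myelin genes, made by oligodendrocytes, were split, with 13 of 35 higher and 8 lower at an adjusted p below 0.05 (edgeR), beside 8.52% and 10.7% of all genes. Their median log2 fold change was 0.09. With all samples none was called higher, and 2 were without stage 55 replicate 1 or 3. A main myelin protein gene rose by less than the threshold. mbp.S (myelin basic protein) had 360.3, 209 and 417 CPM at stage 55 and 1163, 1031 and 798 CPM at stage 61 (1.60, standard error 0.20, edgeR adjusted p = 9.7e-06). It was picked after its values were seen. The 6 called lower (17.1%, beside 2.98% of all genes) included both copies of tf (transferrin), an iron carrier that oligodendrocytes make and other tissues too. tf.S had 445, 894 and 185 CPM and then 50.3, 0.99 and 4.26 CPM (-4.75, standard error 1.15, adjusted p = 0.022), and its adjusted p was 0.055 without stage 55 replicate 2 and 0.064 without stage 61 replicate 3. tf.L had 141, 681 and 64.5 CPM and then 9.22, 1.13 and 1.96 CPM (-6.11, adjusted p = 0.0054). At stages 44 and 46 both copies had means of at most 7.66 CPM. No microglial gene of 19 was called with edgeR or DESeq2 (2 higher and 1 lower at an unadjusted p below 0.05). Of 29 astroglial and ependymal genes, gja1.L was the only one called with edgeR (2 higher and 1 lower with DESeq2), 9 were higher and 1 lower at any size, and the potassium channel gene kcnj10.L, picked after its values were seen, went from 15.2 ± 2.25 to 36.8 ± 8.57 CPM (1.28, adjusted p = 6.6e-04).

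Among 64 tested transcription factors that pattern the midbrain and its neurons 4 (6.25%, beside 2.98% of all genes) were called lower and none higher with edgeR, and 5 lower with DESeq2. Their median log2 fold change was -0.37, and 18 were lower and 2 higher at any size, beside 10.7% and 8.52% of all genes. The count called lower was 2 without stage 61 replicate 1 and 8 without stage 61 replicate 3. pax3.L, of the dorsal neural tube, had 29.6, 24.9 and 38.0 CPM and then 3.95, 3.40 and 10.6 CPM (-2.35, standard error 0.31, edgeR adjusted p = 1.7e-05), and lmx1a.L, of the roof and floor plate, went from 6.59 ± 0.133 to 1.21 ± 1.02 CPM (-2.5, adjusted p = 5.7e-04), with -1.92 without stage 61 replicate 1. Of 27 forebrain genes 4 (14.8%) were called lower and 25 were negative, and their sum was 370.1 to 433 CPM at stage 55 and 256 to 292 CPM at stage 61, without overlap.

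In the Wnt pathway 2 of 63 genes (3.17%, beside 2.98% of all genes) were called lower. At any size 14 were lower and none higher at an adjusted p below 0.05 (edgeR), beside 10.7% and 8.52% of all genes. With DESeq2 1 was called higher and 2 lower, and the highest log2 fold change with edgeR was 3.70. At an unadjusted p below 0.05 (edgeR) 5 were higher and 23 lower. Of those called lower with edgeR, notum.S, for an enzyme that inactivates Wnt ligands, had 0.94 to 2.24 CPM and then no count, at least 13.8-fold lower. The receptor gene fzd2.S went from 9.10 ± 1.71 to 1.73 ± 1.41 CPM (SD, n = 3 each, edgeR, -2.35, adjusted p = 3.4e-04), with -1.95 without stage 61 replicate 2. Of 63 genes of the FGF, Hedgehog and BMP pathways 2 (3.17%) were called lower, and 20 were lower and 2 higher at any size. Among those called was fgfr4.L, a growth factor receptor gene, at 32.9, 27 and 16.8 CPM and then 4.17, 5.52 and 3.46 CPM (-2.55, adjusted p = 3.2e-07). With 1 sample left out, 1 to 4 Wnt genes (1 without stage 61 replicate 2, 4 without stage 61 replicate 1 or 3) and 1 to 3 genes of the other pathways (1 without stage 55 replicate 1 or 3 or stage 61 replicate 2) were called. igf2bp3.L, an RNA-binding protein of growing tissue, went from 31.5 ± 8.56 to 6.1 ± 0.714 CPM (-2.36, adjusted p = 4.6e-08), after 126 CPM at stage 44 and 103 CPM at stage 46. It was the only gene called with edgeR among 17 tested post-transcriptional regulators of juvenile tissue (5.88%, beside 2.98% of all genes). With DESeq2 1 of that list was called higher and 1 lower. Their median log2 fold change was -0.71, with 14 negative and 3 positive values, the highest at 4.63. None of 36 genes of cell death and the lysosome was called with edgeR or DESeq2, and 3 were higher and 4 lower at an unadjusted p below 0.05.

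Some of the largest falls were in genes best known from tissue next to or outside the brain. Among pituitary hormone genes, gh1.S (growth hormone) had 61.0, 102 and 0 CPM at stage 55 and 0.33, 0 and 0.23 CPM at stage 61 (edgeR adjusted p = 0.023), and its adjusted p was 0.050 to 0.078 without any of the other 5 samples. tshb.S, the beta subunit of thyrotropin, had 38.2, 34.8 and 2.83 CPM and then 0.44, 0 and 0.23 CPM (adjusted p = 0.0024), and cga.L, the subunit that glycoprotein hormones share, had 12, 4.41 and 0.68 CPM and then a read in 1 sample, at 0.11 CPM (adjusted p = 1.8e-04), both picked after their values were seen. pomc.L, the precursor of corticotropin and melanotropin, had 41.2, 841 and 21.3 CPM and then 13.3, 2.69 and 11.1 CPM (-5.03, adjusted p = 0.042), a call that rested on stage 55 replicate 2, without which it was -1.77, and that was lost without any 1 of the stage 61 samples (adjusted p 0.098 to 0.12). At stages 44 and 46 gh1.S had means of 16.7 and 34.3 CPM. A sum of 6 hormone genes (pomc.L, pomc.S, gh1.S, tshb.S, cga.L and cga.S) was 169, 1377 and 34.2 CPM at stage 55. At stage 61 it was 23.1, 4.10 and 17.4 CPM. The prolactin family gene LOC108697263, given below, was not in this sum. The whole pituitary list overlapped between the stages (941 to 2602 and 1138.5 to 1334 CPM). Of the 13 tested pituitary genes 5 (38.5%, beside 2.98% of all genes) were called lower, with a median log2 fold change of -0.02, and 3 without stage 55 replicate 2 or without any 1 of the stage 61 samples. LOC108697263, named prl.2.S (prolactin family) by RefSeq (assembly v10.1), had 101, 67.9 and 59.6 CPM and then a read in 1 stage 61 sample, at 0.35 CPM (edgeR adjusted p = 2.2e-09). Unlike gh1.S, it was present in each stage 55 sample. The other leading bare identifier among the falls, LOC108695906, has no name that links it to the pituitary or another tissue. It had 198, 169 and 77.2 CPM and then 0, 0.42 and 0.12 CPM (adjusted p = 3.8e-07).

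Genes of photoreceptors, which the eye and the pineal organ hold, were also among the falls. Of 43 photoreceptor and lens genes in the count table only 14 had enough reads to be tested. All 14 had negative log2 fold changes, with a median of -3.25, and 7 (50%, beside 2.98% of all genes) were called lower. Members at or near 0 at stage 61 could be tested only through their reads at other stages. The shared sign and the median are therefore not independent of that choice of genes. rbp3.L, a retinoid-binding protein of photoreceptors, had 12.4, 12.8 and 14 CPM at stage 55 and a read count above 0 in only 1 stage 61 sample, at 0.99 CPM (edgeR adjusted p = 0.0026). pde6b.L, a subunit of the rod phosphodiesterase, had 1.53 to 3.65 CPM and then no count, at least 21.6-fold lower. The transducin gene gnat1.L of rods and the photoreceptor factor gene crx.L, picked after their values were seen, went from 4.96 ± 1.12 to 0.0768 ± 0.133 CPM (adjusted p = 1.5e-04) and from 2.02 ± 0.688 to 0.0732 ± 0.127 CPM (adjusted p = 5.4e-04). Each stage 61 level here stood at or near 0. Outside the list, gnb3.L, a transducin subunit, cdhr1.L, a photoreceptor cadherin, and rcvrn.2.S, recoverin, had 4.01 ± 0.635, 3.5 ± 0.799 and 2.01 ± 0.778 CPM (SD, n = 3 each) at stage 55 and no count at stage 61, at least 33.2-fold, 29-fold and 16.6-fold lower. rbp4l.L, of the retinol-binding protein family, had 38.7, 44.0 and 36.1 CPM and then a read in 1 sample, at 0.12 CPM (adjusted p = 7.6e-04). Summed, the list had 60.2 to 79.0 CPM at stage 55 and 16.8 to 19.7 CPM at stage 61, and 31.6 to 105 CPM at the 6 earlier samples.

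Fibrillar collagens and genes of connective tissue fell in part. Of 55 extracellular matrix genes 12 (21.8%, beside 2.98% of all genes) were called lower and none higher, with a median log2 fold change of -0.72. With each sample left out, 8 to 12 were called lower. col1a2.L had 60.5, 54.0 and 117 CPM at stage 55 and 12.1, 10.6 and 4.84 CPM at stage 61 (-3.07, standard error 0.37, edgeR adjusted p = 4.1e-05), and col1a1.L, picked after its values were seen, went from 49.0 ± 32.5 to 9.38 ± 2.14 CPM (-2.39, adjusted p = 5.2e-04), with -1.71 without stage 55 replicate 3. The scavenger receptor gene colec12.L had 135, 163 and 82.6 CPM and then 3.95, 0.14 and 0.92 CPM (-6.15, standard error 0.53, adjusted p = 1.7e-05). The transcription factor gene osr1.L, of mesenchyme, had no count at stage 61 and was at least 24.2-fold lower. Other genes with no count at stage 61 were tgif2.S, a homeobox corepressor gene, lrrc17.S, for a secreted leucine-rich repeat protein, and mgst1.L, for a microsomal glutathione transferase, at least 21.9-fold, 20.1-fold and 14.4-fold lower. The basement membrane genes col4a1.L and col4a2.L, picked after their values were seen, had log2 fold changes of 0.14 and 0.18 (adjusted p = 0.84 and 0.61).

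Globin genes moved in both directions. Of 16 red blood cell genes 2 were called higher and 1 lower (12.5% and 6.25%, beside 0.352% and 2.98% of all genes), with a median log2 fold change of -0.90. The globin gene hbd.L had 19.4, 23.6 and 6.43 CPM at stage 55 and 0.33, 0.42 and 0.69 CPM at stage 61 (edgeR, -5.06, standard error 0.54, adjusted p = 7.1e-06), while its copy hbd.S had 301 ± 156 and 194 ± 45.9 CPM (-0.63, adjusted p = 0.35) and hba3.L had 684 ± 466 and 314 ± 78.3 CPM (-1.12, adjusted p = 0.31). In the opposite direction, hbg1.L had 0.21, 0.09 and 0.39 CPM and then 13.4, 2.83 and 19.9 CPM (5.66, standard error 0.80, adjusted p = 3.2e-05), and hbg1.S had no count at stage 55 and 10.5, 0.71 and 22 CPM at stage 61, at least 114-fold higher. Frogs are known to exchange larval for adult globins at metamorphosis, and whether these changes belong to that exchange was not tested. In both hbg1 copies stage 61 replicate 2 was far below the other stage 61 samples. Summed red blood cell markers, 585 to 849 CPM at stage 61, overlapped with 723 to 2052 CPM at stage 55.

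Marker lists of other tissues were also summed. Summed photoreceptor genes were separate between the stages, and extracellular matrix, at 1617 to 2292 CPM and then 1348 to 1556 CPM, was separate too. The sum of the pituitary hormone genes given above was also separate. Some genes of that sum were picked after their values were seen, so its separation is not independent support, and the whole pituitary list overlapped. Endothelium (388 to 598 and 468 to 514 CPM), skeletal muscle (50.9 to 67.3 and 46.9 to 70.4 CPM) and cartilage (188 to 278 and 176 to 225 CPM) overlapped. Choroid plexus markers went from 241 to 278 CPM to 327 to 387 CPM. Of 18 tested, 1 was called higher and 1 lower (5.56% each, beside 0.352% and 2.98% of all genes). Their median log2 fold change was -0.27, with 8 positive and 10 negative values. In that list enpp2, for an enzyme that makes lysophosphatidic acid, had 5.94, 5.86 and 3.31 CPM and then 45.6, 10.8 and 12.7 CPM (2.19, standard error 0.50, edgeR adjusted p = 0.0042), with 1.2 without stage 61 replicate 1 and 1.96 without stage 55 replicate 3. Its copy enpp2.L had 22.1 ± 3.39 and 71.2 ± 5.77 CPM (1.69, adjusted p = 9.1e-07). The member called lower, ptgds.L, went from 10.1 ± 3.49 to 2.22 ± 0.863 CPM (-2.16, edgeR adjusted p = 0.0018). It was -1.96 without stage 55 replicate 1 and -1.91 without stage 61 replicate 2. The part of these tissues in the falls and rises given above was not tested.

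**Figure D5:**
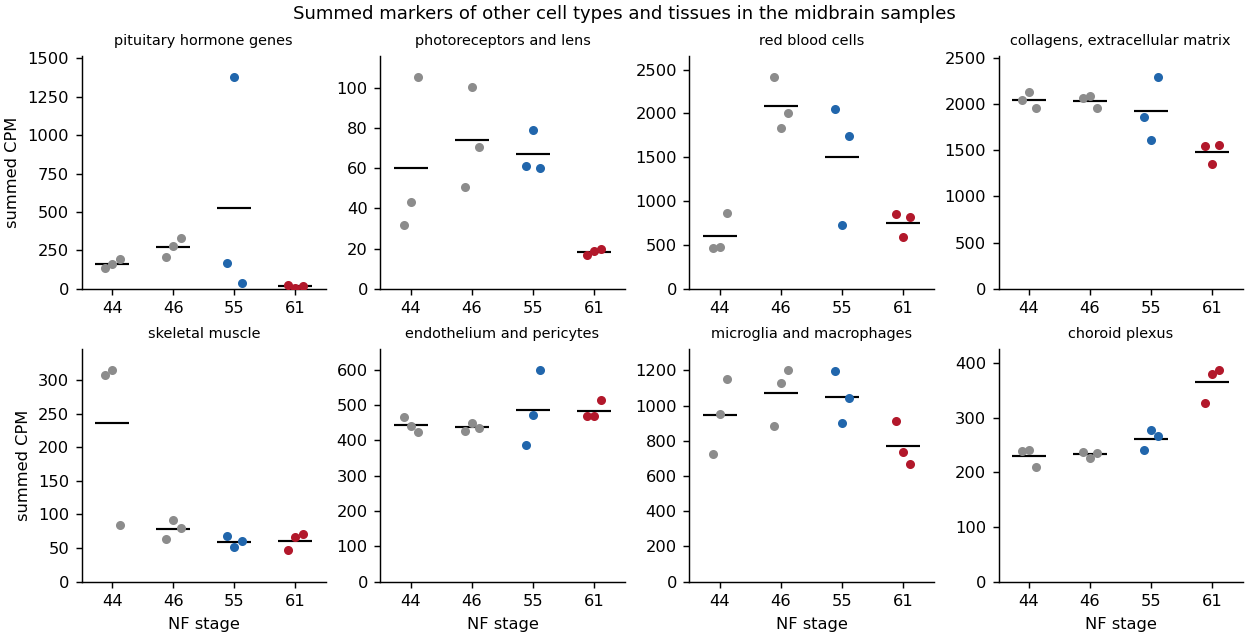
Summed CPM of 6 pituitary hormone genes (top left) and of 7 lists of markers of other cell types and tissues in each of the 12 midbrain samples by NF stage, with points for samples, bars for the mean of 3, blue for stage 55, red for stage 61, and a separate axis from 0 in each panel. The hormone sum reached 1377 CPM in 1 stage 55 sample and was 4.10 to 23.1 CPM at stage 61, the photoreceptor sum went from 60.2 to 79.0 CPM to 16.8 to 19.7 CPM, and the muscle sums of both stages overlapped.

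Xenopus laevis carries many genes as a pair of copies, .L on the long and .S on the short chromosome of a pair, left from an ancient genome doubling. Both copies were tested for 5006 symbols. In 76 of them both copies were called lower and in 3 both were called higher, namely hbg1, inhbb and thibz. In 126 symbols 1 copy alone was called lower, and the other copy had a negative value in 106 of these, with a median of -0.98. In 19 symbols 1 copy alone was called higher, and the other was positive in 15, with a median of 1.05. Over all pairs the log2 fold changes of the copies correlated across genes with Pearson's r of 0.60, and with 0.79 over 3342 pairs in which both copies reached 10 CPM at stage 55 or 61. Reads that match both copies can be assigned to either, and how the counting treated them is not stated.

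Opposite calls were seen in 2 symbols, at low counts. pcdh8.2.L, a protocadherin gene, had 1.46, 0 and 0.19 CPM and then 4.06, 4.39 and 6.68 CPM (edgeR, 3.21, standard error 0.72, adjusted p = 0.0028), while pcdh8.2.S had 2.5, 0.54 and 2.14 CPM and then 0, 0.14 and 0.12 CPM (adjusted p = 0.024). The adjusted p of pcdh8.2.S was 0.051 to 0.082 without stage 55 replicate 1 or 3 or stage 61 replicate 1 or 3. cdh1.L, the epithelial cadherin gene, had 0, 0.45 and 0.19 CPM and then 21.4, 0 and 5.41 CPM (adjusted p = 0.045), and cdh1.S was at 0.21, 2.25 and 0 CPM and then at no count (adjusted p = 0.044). The call of cdh1.L was lost without any 1 of 5 samples and that of cdh1.S without stage 55 replicate 2 or any 1 of the stage 61 samples, with adjusted p between 0.066 and 0.40.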

How the data were processed

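The authors deposited a table of raw read counts per gene, with 49109 genes and 30 samples. Per the study's methods, the authors amplified the RNA to cDNA with a Nugen Ovation kit, sequenced it on an Illumina instrument, aligned the reads with STAR 2.5.2a to the v9.2 assembly of Xenbase and counted them with HTSeq 0.11.1. How reads shared by .L and .S copies were treated, and whether counting used strand, is not given in the sources used here, so copies and overlapping genes are uncertain. Deposited tables normalized with DESeq2 1.22.2 were not used.

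The 12 midbrain samples of stages 44, 46, 55 and 61 were fitted together with edgeR 4.0.16 (R 4.3.3, limma 3.58.1), using TMM factors and filterByExpr (min.count 10, min.total.count 15), and a robust quasi-likelihood test of stage 61 against stage 55 with Benjamini-Hochberg adjustment over 26681 genes. Calls required an adjusted p under 0.05 together with a change of more than 2 on the log2 scale. Standard errors were derived from the log2 fold change and the F statistic. Where a stage had no count for a gene, the fold is a bound that sets 3 counts for the stage as a whole. Counting error is one part of the spread, and floors cover only that part. The script was tested on simulated data with 200 changed genes.

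Groups came from the labels. Gene lists and members were chosen with earlier results of these data known. The text names the 15 genes with a symbol called in each direction with the largest fold change, no overlap and at least 1 CPM, the 10 with the largest difference in CPM, the called members of each list with the highest CPM and the largest fold change (or the highest CPM where none was called), the 2 leading bare identifiers, and the tested copies of thra, thrb, thibz, klf9, dio2 and dio3. Not every gene that meets this rule is named, and some results are not reported here. Others are said to be picked after their values were seen. RefSeq (assembly v10.1) gave names only, matching 12362 of 16193 LOC identifiers. Alternatives were other filters, normalizations, samples in the fit, thresholds and tests, DESeq2 1.42.0, thinned counts, summed copies, the replicate number as a block, and each sample left out.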

Additional observations from a re-analysis of the deposited data

How the results depend on the processing

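Of 26681 genes tested with edgeR, 94 were called higher and 795 lower, and both counts stayed within 1.5 times of these under RLE (96 and 789), upper quartile (93 and 807) and library size scaling (89 and 815), with no filter (130 and 944), in DESeq2 with the filter (108 and 854) and without (126 and 911), in a fit of the 6 samples alone (73 and 552), with counts thinned to the smallest library (89 and 760) and with copies summed (79 and 631). They moved further with a minimum count of 50 (45 and 503), with glmTreat against a log2 fold change of 1 (40 and 502) and with a threshold of 1 (570 and 1765). In a fit of all 30 samples, which tested 45417 genes, the higher calls moved further, to 44, while the lower calls, at 633, stayed within 1.5 times. Leaving out each sample in turn gave 81 to 143 higher and 732 to 875 lower. The most higher calls came without stage 55 replicate 3, of which 73 were shared with the 94. The cause was not tested. Whether samples that share a replicate number were collected together is not given by the labels. Between stage 55 and stage 61, deviations from the stage means correlated at 0.062, -0.059 and 0.015 for replicates 1 to 3. With the replicate block 94 genes were called higher and 752 lower. Of 135 named genes 73 kept their call in each alternative that could be computed. The reversals came from summing copies, where the symbol of cdh1.S had a log2 fold change of 3.07 (adjusted p = 0.18) and that of pcdh8.2.S 1.18 (adjusted p = 0.14). Precision was limited by 3 samples per stage and by low counts, with a median standard error of 0.65 among genes called higher and 0.58 among genes called lower, whose median levels were 7.26 CPM at stage 61 and 6.18 CPM at stage 55.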

Other observations

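Of 45 tested genes of cholesterol and lipid synthesis 2 (4.44%, beside 2.98% of all genes) were called lower and none higher, with a median log2 fold change of -0.28 and 38 negative values. At any size 11 were lower and 2 higher, beside 10.7% and 8.52% of all genes. The lipase gene lpl.S, which releases fatty acids from lipoproteins, went from 13 ± 3.55 CPM at stage 55 to 2.01 ± 0.916 CPM at stage 61 (SD, n = 3 each, -2.7, edgeR adjusted p = 7.5e-06). Of 24 genes of the glucocorticoid and stress response none was called with edgeR or DESeq2, with 5 higher and 2 lower at any size, and the chaperone gene hspa5.S had 172 ± 10.4 and 196 ± 28.9 CPM (0.18, adjusted p = 0.35). Of 41 neuropeptide and monoamine genes pomc.L was the only one called (2.44%, beside 2.98% of all genes called lower). As given above, that call rested on stage 55 replicate 2 and was lost without any 1 of the stage 61 samples. At any size 8 of the list were higher and 5 lower, beside 8.52% and 10.7% of all genes, with a median log2 fold change of 0.24.

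Immune and surface markers gave calls at low counts, read beside 0.352% of all genes called higher and 2.98% lower. The share called lower was 14.3% for antigen presentation and the interferon response and 9.09% for endothelium and pericytes. Of 14 genes of antigen presentation and the interferon response 2 were called lower, irf1.L (1.65 ± 0.664 to 0.112 ± 0.11 CPM, edgeR adjusted p = 0.020) and mx1 (3.44 ± 2.29 to 0.526 ± 0.592 CPM, adjusted p = 0.040), and neither was called without stage 55 replicate 2 or without stage 61 replicate 2 or 3, nor mx1 without stage 55 replicate 1 (adjusted p 0.066 to 0.15). Among 33 endothelial and pericyte genes 3 were called lower, such as the receptor gene tek.L (1.66 ± 0.791 to 0.154 ± 0.266 CPM, adjusted p = 0.022, 0.072 to 0.075 without stage 55 replicate 3 or stage 61 replicate 1 or 2) and the factor gene fli1.L (6.26 ± 2.8 to 1.25 ± 1.02 CPM, -2.33, adjusted p = 0.0026, with -1.91 without stage 55 replicate 1 and -1.76 without stage 61 replicate 1). The epidermal list had 1 of 26 genes called in each direction, the opposite copies of cdh1, and 5 lower without stage 55 replicate 3.

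The series holds 1 midbrain sample of stage 66, the end of metamorphosis, which has no replicate. It entered the fit of all 30 samples but no test of its own, and its values are only described here. In this stage 66 sample dio3.L was at 6.43 CPM, thibz.L at 1.41 CPM and thibz.S at 1.57 CPM, each below every stage 61 sample. klf9.L was at 101 CPM, above the stage 55 samples and below the stage 61 samples, and thrb.L at 9.87 CPM and thrb.S at 11.9 CPM were within the range of stage 61. Among other genes, slc4a4.L was at 827 CPM, mbp.S at 1454 CPM, dio2.L at 1.25 CPM and fabp7.L at 170 CPM, each further from stage 55 than the stage 61 samples. The bare identifiers LOC108707216, at 177 CPM, and LOC108717350, at 260 CPM, were back within the range of stage 55.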
